A study of Homo sapiens with 8 samples.

Results

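The 10 genes described here belong to the mesenchymal state of neuroblastoma and were measured in CHP212 cells, a human neuroblastoma line. They are the transcription factor genes PRRX1, FOSL1, FOSL2, RUNX1, RUNX2, SNAI2, TWIST1 and IRF1 and the surface protein genes CD44 and NT5E. They were taken by gene symbol from the deposited tables, 10 of 25369 genes listed, and all 10 were among the 15879 genes with enough reads to test. Poly(A) RNA of 8 libraries was sequenced. The libraries form 4 groups of 2 independent biological replicates, all in CHP212 cells after 12 h of treatment. These were FAM193A knockout (KO) cells with Nutlin-3a at 10 uM, KO cells with DMSO at 0.2%, unmodified (WT) cells with Nutlin-3a at 10 uM and WT cells with DMSO at 0.2%. Nutlin-3a blocks the binding of MDM2 to p53, and DMSO is its solvent. The labels name 1 KO population and do not describe the edit, so the loss of FAM193A and any other property of that population cannot be told apart.

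Neuroblastoma cells move between a sympathetic, adrenergic state, held by factors such as HAND2 and GATA3, and a mesenchymal state that resembles neural crest or stromal precursors. PRRX1, the FOS-like subunits of AP-1, the RUNX factors and the repressors of the epithelial program SNAI2 and TWIST1 are among the regulators placed in the mesenchymal state. CD44, the hyaluronan receptor, and NT5E, the ectonucleotidase CD73, are used as its surface markers.

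Read totals ran from 28390405 to 38010075 per library, and each of the 10 genes had between 263 and 9386 reads in every library. Levels are the authors' RPKM, read counts divided by gene length and by library size. Genes can be compared by RPKM only as far as the authors' gene lengths hold. Fold changes are log2 values from edgeR's quasi-likelihood test on the counts, with standard errors (SE), and adjusted p is the Benjamini-Hochberg value over all tested genes, with 0.05 as the threshold. FAM193A was still read in KO cells, at 8.42 and 7.58 RPKM with Nutlin-3a and 6.79 and 6.27 RPKM with DMSO, against 9.40 and 8.38 RPKM in WT cells with Nutlin-3a and 8.25 and 7.44 RPKM with DMSO. It was lower in KO cells by -0.33 on the log2 scale under DMSO (adjusted p = 0.000999) and by -0.24 under Nutlin-3a (adjusted p = 0.00827), but the second value missed the threshold when KO Nutlin-3a replicate 2 (adjusted p = 0.107) or replicate 1 of WT Nutlin-3a (adjusted p = 0.0722) was omitted. A level this near to WT is a weak check of the labels. CDKN1A and MDM2, targets of p53, rose with Nutlin-3a in both genotypes, CDKN1A by 5.12 in KO and 5.39 in WT cells and MDM2 by 3.38 in KO and 4.61 in WT cells on the log2 scale. The MDM2 rise was smaller in KO cells, by -1.23 (adjusted p = 8.2e-10). For CDKN1A the difference was -0.27 (adjusted p = 0.00942), a call lost without WT DMSO replicate 1 (adjusted p = 0.0573) or KO DMSO replicate 1 (adjusted p = 0.06055). Among markers of the adrenergic state HAND2 was at 356 to 378 RPKM in KO and 239 to 251 RPKM in WT cells. GATA3 went the other way, at 15.2 to 21.8 RPKM in KO and 27.2 to 34.7 RPKM in WT cells. Of 24 tested markers, 15 were higher and 7 lower in KO cells under DMSO. Of the 28 listed, 8 stood under 1 RPKM in each KO library and 13 in each WT library. CHGA, a secretory granule protein gene, was among the WT ones. In 3 libraries, KO Nutlin-3a replicate 2, WT Nutlin-3a replicate 1 and WT DMSO replicate 2, between 5 and 21 genes had at least 50 reads and at least 5 times the level of the other replicate, among them PIGR and CEACAM5 in KO Nutlin-3a replicate 2 and WT DMSO replicate 2. None of the 10 genes was among these. The counts of members called are therefore also given without those 3 libraries, while the 2-fold and list counts use all 8. That smaller fit has 5 libraries, 1 in each of 3 groups, and 1 residual degree of freedom, from the KO DMSO pair. The lone libraries are assumed to vary like that pair.

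The genotype comparison asks what differs between KO and WT cells at each treatment. Under DMSO, 8 of the 10 genes were lower and 2 were higher in KO cells than in their WT counterparts. Over all tested genes 30.1% were lower and 31.4% higher, and 61.5% were called in either direction. The fall passed 2-fold for 7 of the 10 and no rise did, where 7.23% of all genes fell, 9.88% rose and 17.1% did either by more than 2-fold. The median log2 fold change was -1.47 for the 10 genes and 0.01 for all tested genes. Under Nutlin-3a, 7 of the 10 were lower and 0 higher in KO cells, where 30.4% of all tested genes were lower, 32.7% higher and 63.1% either. Of these 7, 6 fell by more than 2-fold and no gene rose that far, against 8.49% of all genes falling, 10.1% rising and 18.6% doing either, and the medians were -1.59 for the 10 genes and 0.02 for all. Without the 3 libraries, 8 were lower and 2 higher under DMSO, where 61.6% of all genes were called, and 8 were lower and 1 higher under Nutlin-3a, where 60.9% were. The count of 0 higher genes under Nutlin-3a came from edgeR with TMM scaling and the low-count filter, where SNAI2 (log2 fold change 0.21, adjusted p = 0.0557, unadjusted p = 0.0356) stood higher at an unadjusted p under 0.05. With upper-quartile scaling edgeR called SNAI2 and TWIST1 higher, without the low-count filter it called SNAI2, and limma called both. The 2 genotype comparisons share no library.

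**Figure D1:**
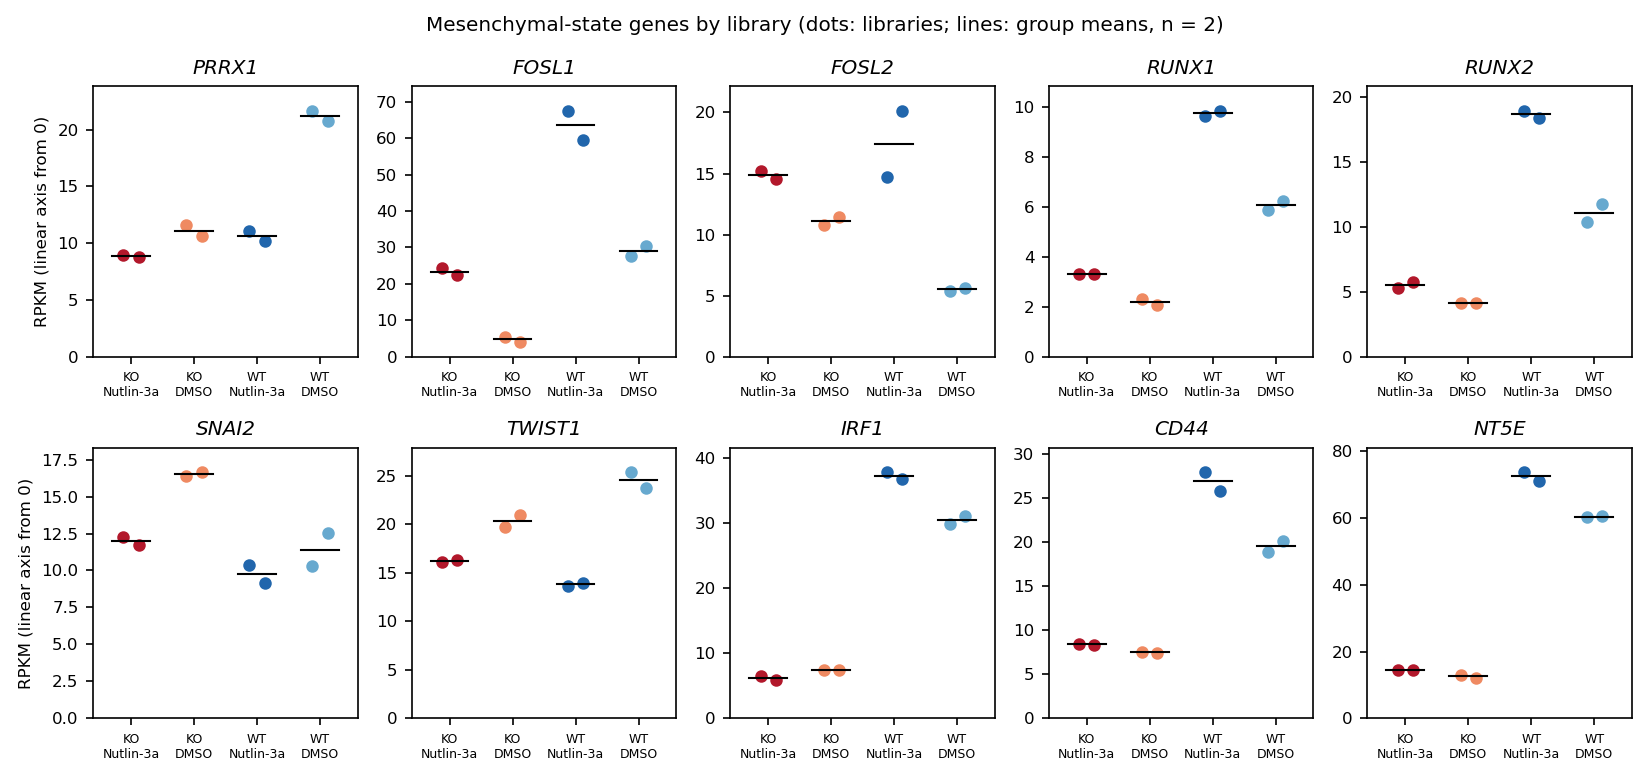
RPKM of each of the 10 genes in the 8 libraries, on a linear axis from 0, with a dot for each library and a line for the mean of the 2 replicates of a group. The KO libraries of FOSL1, RUNX1, RUNX2, IRF1, CD44 and NT5E lie below the WT libraries of the same treatment, and those of SNAI2 lie above them.

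**Figure D2:**
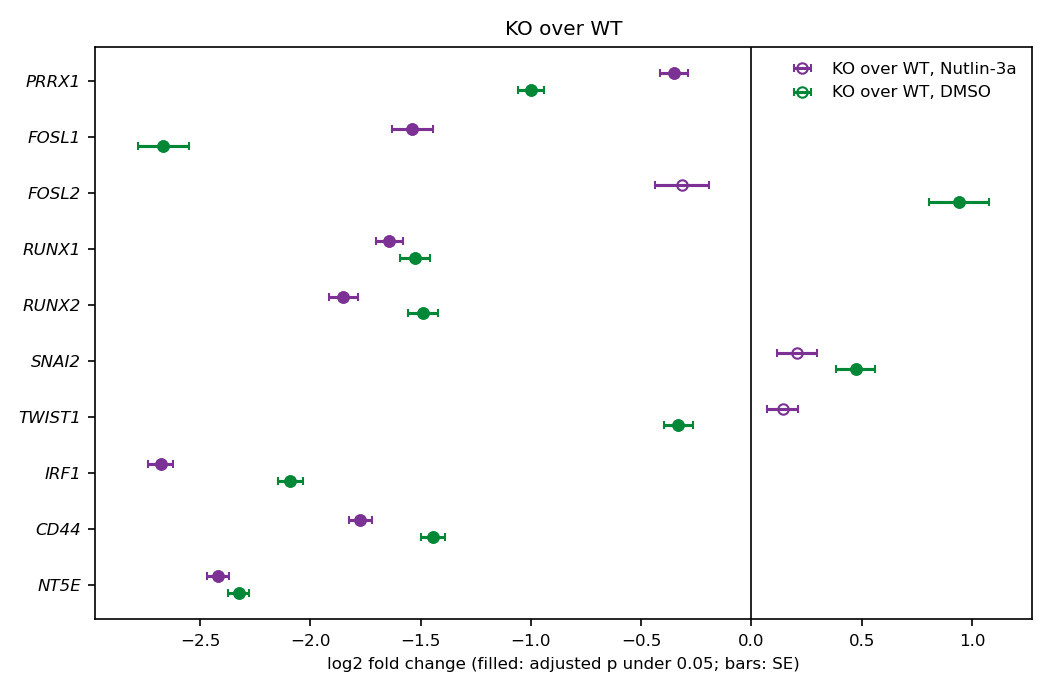
Log2 fold change of KO over WT cells, with SE, under Nutlin-3a and under DMSO for each gene; filled points passed adjusted p under 0.05. RUNX1, RUNX2, IRF1, CD44 and NT5E lie below -1.4 in both, FOSL1 is lower still under DMSO (-2.67), and FOSL2 is above 0 under DMSO (0.94) and below 0 under Nutlin-3a (-0.32).

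**Figure D3:**
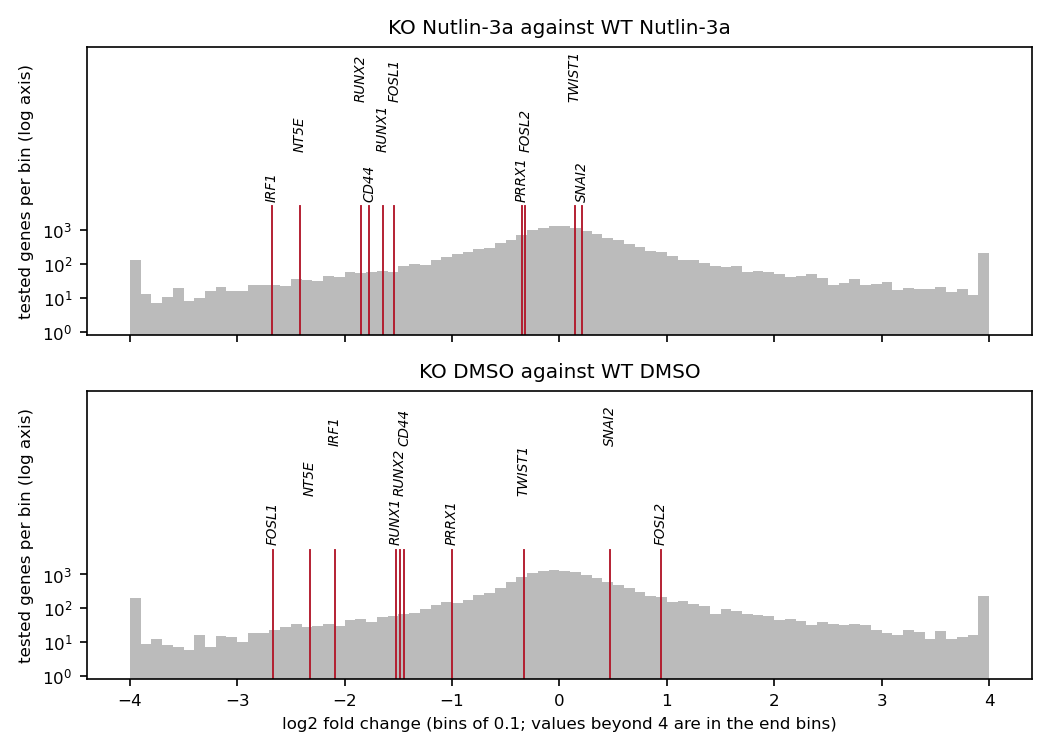
Distribution over the 15879 tested genes of the log2 fold change of KO over WT cells, under Nutlin-3a (above) and DMSO (below), with the number of genes in each bin on a log axis and the 10 genes marked by lines. Their medians, -1.59 under Nutlin-3a and -1.47 under DMSO, lie left of those of all genes, 0.02 and 0.01.

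The Nutlin-3a comparison asks how the drug moves these genes in each genotype. In KO cells 5 of the 10 rose and 4 fell with Nutlin-3a, where 18.1% of all tested genes rose, 20.6% fell and 38.7% did either. By more than 2-fold, 1 of them rose (FOSL1) and 0 fell, against 4.26% of all genes rising, 1.46% falling and 5.72% doing either. In WT cells 7 rose and 3 fell, where 29.4% of all tested genes rose, 29.2% fell and 58.6% did either. There 2 of them rose and 1 fell by more than 2-fold, against 8.30% of all genes rising, 5.77% falling and 14.1% doing either. The median log2 change was 0.15 in KO cells, against -0.01 for all genes, and 0.37 in WT cells, against 0.02 for all genes. Without the 3 libraries, 6 rose and 4 fell in KO cells, where 43.8% of all genes were called, and 7 rose and 2 fell in WT cells, where 55% were. The difference of the 2 responses, KO minus WT, was called for 7 of the 10, with 3 higher and 4 lower, where 27.5% of all tested genes were called, 14.2% higher and 13.4% lower. Without the 3 libraries it was called for 7, with 3 higher and 4 lower, where 31.4% of all genes were called. By more than 2-fold, 1 was higher (FOSL1) and 1 lower (FOSL2), against 1.59% of all genes higher, 2.10% lower and 3.70% either. The KO and WT responses share no library, but each shares its DMSO or Nutlin-3a libraries with a genotype comparison, so the values of one comparison are not independent of the other.

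PRRX1 encodes a paired-related homeodomain factor that is among the regulators able to drive the mesenchymal state. Its RPKM in replicates 1 and 2 was 8.94 and 8.81 in KO Nutlin-3a cells, 11.6 and 10.6 in KO DMSO cells, 11.05 and 10.2 in WT Nutlin-3a cells, and 21.7 and 20.8 in WT DMSO cells. WT DMSO stood highest, KO DMSO and WT Nutlin-3a overlapped, and KO Nutlin-3a was lowest without overlap. Under DMSO PRRX1 was lower in KO cells (log2 fold change -1.0, SE 0.06, adjusted p = 4.4e-11), and by less under Nutlin-3a (-0.35, SE 0.06, adjusted p = 9.3e-05). Nutlin-3a lowered it in KO cells (-0.35, adjusted p = 0.000153) and in WT cells (-1.0, adjusted p = 5.1e-11), a smaller fall in KO cells by 0.65 on the log2 scale (SE 0.09, adjusted p = 1.8e-05). The genes closest in pattern over the 8 libraries, by the root mean square difference of centred log2 CPM among 10745 genes, were CAMK2N1 (0.052) and TEX30 (0.076), against a standard deviation of 0.54 for PRRX1 itself.

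FOSL1 and FOSL2 encode FRA1 and FRA2, FOS-family proteins that bind DNA as AP-1 with a JUN partner. FOSL1 was at 24.3 and 22.4 RPKM in KO Nutlin-3a cells, 5.43 and 4.15 in KO DMSO cells, 67.5 and 59.6 in WT Nutlin-3a cells, and 27.5 and 30.5 in WT DMSO cells. No 2 groups overlapped, and the order was WT Nutlin-3a, WT DMSO, KO Nutlin-3a, KO DMSO. FOSL1 was lower in KO cells by -2.67 under DMSO (SE 0.11, adjusted p = 9.9e-10) and by -1.54 under Nutlin-3a (SE 0.09, adjusted p = 2.0e-08). Nutlin-3a raised it by 2.26 in KO cells (SE 0.12, adjusted p = 1.4e-08) and by 1.13 in WT cells (SE 0.09, adjusted p = 3.8e-07), a larger rise in KO cells by 1.13 (SE 0.15, adjusted p = 0.000158).

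FOSL2 moved otherwise. It was at 15.2 and 14.6 RPKM in KO Nutlin-3a cells, 10.8 and 11.5 in KO DMSO cells, 14.7 and 20.1 in WT Nutlin-3a cells, and 5.42 and 5.66 in WT DMSO cells. WT DMSO was lowest and KO DMSO next, while both Nutlin-3a groups overlapped at the top. Under DMSO FOSL2 was higher in KO cells (0.94, SE 0.14, adjusted p = 0.000451), while its difference with Nutlin-3a present was -0.32 (SE 0.12, adjusted p = 0.0526). That difference passed without WT Nutlin-3a replicate 1 (-0.53, adjusted p = 6.7e-10), with the DESeq2 Wald test (adjusted p = 0.00483) and with the replicate number as a block (-0.31, adjusted p = 0.0147). Nutlin-3a raised FOSL2 by 1.65 in WT cells (SE 0.14, adjusted p = 1.2e-05). The rise in KO cells was 0.39 (SE 0.12, adjusted p = 0.0408), a call lost when any of the 4 KO libraries or either WT DMSO library was left out (adjusted p from 0.0567 to 0.187). The difference of the responses, KO minus WT, was -1.26 (SE 0.18, adjusted p = 0.00153).

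The balance of the FOSL pair differed between groups. The ratio of FOSL1 to FOSL2 RPKM was 1.60 and 1.54 in KO Nutlin-3a cells, 0.504 and 0.362 in KO DMSO cells, 4.58 and 2.96 in WT Nutlin-3a cells, and 5.08 and 5.39 in WT DMSO cells. FOSL2 exceeded FOSL1 only in KO DMSO cells among the 4 groups. Of 13 other tested genes of AP-1 and related factors, 5 were higher and 5 lower in KO cells under DMSO (median 0.01). Under Nutlin-3a 4 were higher and 4 lower (median 0.01). Over all tested genes, 31.4% were higher and 30.1% lower under DMSO, and 32.7% higher and 30.4% lower under Nutlin-3a. These shares are the background for the list counts below as well. MAFK, a small MAF protein, was lower in KO cells under DMSO (-0.86) and under Nutlin-3a (-1.77). With Nutlin-3a 7 of these 13 genes rose and 1 fell in KO cells, and 6 rose and 2 fell in WT cells. Of all tested genes, 18.1% rose and 20.6% fell in KO cells, and 29.4% rose and 29.2% fell in WT cells. The stress-response factor ATF3 rose in KO cells (1.35) and WT cells (1.89), and FOS rose in KO cells (1.34) and WT cells (1.95). The genes most like FOSL1 were KRT19, a keratin (0.27), and VGF, a neuropeptide precursor (0.37), against a standard deviation of 1.48 for FOSL1. Those most like FOSL2 were HDAC9, a histone deacetylase (0.11), and STAT3, a cytokine-activated factor (0.12), against 0.67 for FOSL2.

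**Figure D4:**
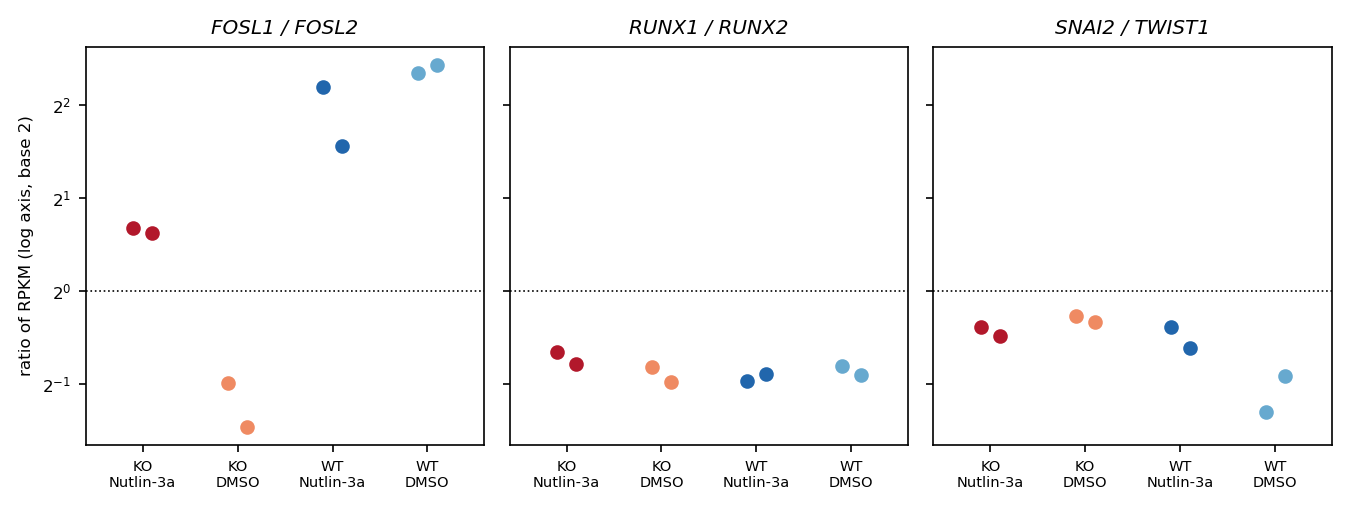
Ratio of RPKM within 3 pairs of related factors in each library, on a log axis of base 2, with a dotted line at 1. FOSL1 over FOSL2 lies below 1 in both KO DMSO libraries and above 1 in the other 6, while RUNX1 over RUNX2 stays between 0.507 and 0.632 in all 8.

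RUNX1 and RUNX2 encode runt-domain factors that bind DNA with CBFB. RUNX1 was at 3.34 and 3.32 RPKM in KO Nutlin-3a cells, 2.33 and 2.09 in KO DMSO cells, 9.65 and 9.87 in WT Nutlin-3a cells, and 5.89 and 6.26 in WT DMSO cells. RUNX2 was at 5.28 and 5.76 RPKM in KO Nutlin-3a cells, 4.11 and 4.12 in KO DMSO cells, 19.0 and 18.4 in WT Nutlin-3a cells, and 10.4 and 11.8 in WT DMSO cells. Both genes had the same order of groups, WT Nutlin-3a, WT DMSO, KO Nutlin-3a and KO DMSO, with no overlap between neighbours. RUNX1 was lower in KO cells by -1.52 under DMSO (SE 0.07, adjusted p = 5.3e-13) and by -1.64 under Nutlin-3a (SE 0.06, adjusted p = 6.3e-14). RUNX2 was lower by -1.49 under DMSO (SE 0.07, adjusted p = 1.3e-12) and by -1.85 under Nutlin-3a (SE 0.07, adjusted p = 2.5e-14). Nutlin-3a raised RUNX1 by 0.56 in KO and 0.68 in WT cells, and the difference, -0.12, had a 95% interval from -0.31 to 0.08 (adjusted p = 0.381). It raised RUNX2 by 0.39 in KO and 0.75 in WT cells, a smaller rise in KO cells by -0.36 (SE 0.10, adjusted p = 0.00804). The RUNX2 difference missed the threshold when KO Nutlin-3a replicate 1 was left out (adjusted p = 0.0663) and when WT DMSO replicate 1 was (adjusted p = 0.0613).

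The RUNX2 promoter windows in RefSeq (GRCh38.p14) are shown because the gene has 2 starts and moved with RUNX1. Each line gives the 250 bases before a start, 5′ to 3′ on the gene's strand, with AP-1 and RUNX matches in capitals and E-boxes not marked.
RUNX2 first window, chr6:45328080-45328329, plus strand: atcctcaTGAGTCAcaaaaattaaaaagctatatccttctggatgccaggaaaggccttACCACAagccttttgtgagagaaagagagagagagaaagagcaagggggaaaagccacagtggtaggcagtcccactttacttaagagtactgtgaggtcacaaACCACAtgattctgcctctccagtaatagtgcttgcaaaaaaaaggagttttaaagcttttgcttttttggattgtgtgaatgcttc
RUNX2 second window, chr6:45422025-45422274, plus strand: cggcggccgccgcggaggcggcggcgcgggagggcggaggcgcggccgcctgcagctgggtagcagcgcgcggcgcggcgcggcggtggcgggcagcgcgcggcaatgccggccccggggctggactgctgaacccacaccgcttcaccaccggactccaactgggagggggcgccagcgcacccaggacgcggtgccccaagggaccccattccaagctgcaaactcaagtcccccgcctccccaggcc
Both strands of each window, from 250 bases before to 50 after the start, were searched for the AP-1 motif TGANTCA, the RUNX motif TGTGGT, the E-box CANNTG, the STAT-type GAS motif TTCNNNGAA and the IRF motif, a GAAA box followed by any 2 bases and another GAAA box. The first RUNX2 window has 1 AP-1 match, at position -243, and 4 RUNX matches, of which those at -191 and -87 are shown and those at 17 and 25 lie after the start. The match at -87 overlaps an E-box at -85. The second window has no AP-1, RUNX, GAS or IRF match and 3 E-boxes. Of 35116 promoter windows in the RefSeq table, 7.71% hold the AP-1 motif, 13.1% the RUNX motif, 68.7% an E-box, 7.66% the GAS motif and 3.57% the IRF motif. The matches are letters in a window and are no evidence of binding. RefSeq windows were matched for 7 of the 10 genes, and FOSL1, SNAI2 and TWIST1 had no entry. FOSL2 has an AP-1 match at position 5, after its start, and PRRX1, RUNX1, CD44 and NT5E have none of the 5 motifs.

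Of 8 tested genes of the RUNX and CBFB group apart from RUNX1 and RUNX2, 6 were higher and 2 lower in KO cells under DMSO (median 1.05) and likewise 6 and 2 under Nutlin-3a (median 1.23). Among them the Groucho-type corepressor TLE2 was higher by 3.61 under DMSO and 4.24 under Nutlin-3a. RUNX1T1, a corepressor known from a leukaemia fusion with RUNX1, was higher by 1.18 under DMSO. The 2 lower genes were CBFB and TLE4. CBFB was at 55.3 and 52.4 RPKM in KO DMSO and 68.3 and 73.2 in WT DMSO cells. With Nutlin-3a it was at 45.5 and 45.1 RPKM in KO and 55.8 and 51.8 in WT cells. TLE4 was at 7.45 and 7.66 RPKM in KO DMSO and 12.4 and 12.2 in WT DMSO cells. RUNX3 had 0 to 0.053 RPKM in all libraries, a gene noted after its values were seen. The genes most like RUNX1 were PTPRE (0.073) and ITGA2 (0.086), and those most like RUNX2 were MAFF (0.055) and TRIM38 (0.087), against standard deviations of 0.91 for RUNX1 and 0.95 for RUNX2.

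SNAI2 and TWIST1 encode repressors of the epithelial program. SNAI2 was at 12.3 and 11.7 RPKM in KO Nutlin-3a cells, 16.4 and 16.7 in KO DMSO cells, 10.4 and 9.14 in WT Nutlin-3a cells, and 10.3 and 12.5 in WT DMSO cells. KO DMSO stood above all other groups, and WT DMSO overlapped both KO Nutlin-3a and WT Nutlin-3a. Under DMSO SNAI2 was higher in KO cells (0.47, SE 0.09, adjusted p = 0.000123). With Nutlin-3a present the difference was 0.21 (SE 0.09, adjusted p = 0.0557). It passed when WT Nutlin-3a replicate 1 (0.30, adjusted p = 0.00814) or either WT DMSO library (adjusted p of 0.0377 and 0.0357) was left out, and with upper-quartile scaling, no low-count filter or limma. Nutlin-3a lowered SNAI2 in KO cells (-0.49, SE 0.08, adjusted p = 0.000137). The fall in WT cells was -0.23 (SE 0.09, adjusted p = 0.0404), with overlapping replicates. The call was lost when WT DMSO replicate 2 was left out (-0.08, adjusted p = 0.524), when WT Nutlin-3a replicate 2 was (-0.14, adjusted p = 0.224) and when any KO library was (adjusted p from 0.0544 to 0.0600). It was also lost with the DESeq2 Wald test, limma, upper-quartile scaling or the 4 WT libraries alone (adjusted p from 0.0645 to 0.121). The difference of the responses was -0.27 (95% interval from -0.53 to -0.0017, adjusted p = 0.130), and it passed when WT DMSO replicate 2 (-0.42, adjusted p = 0.0283) or replicate 2 of WT Nutlin-3a (-0.36, adjusted p = 0.0204) was left out.

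TWIST1 was at 16.1 and 16.4 RPKM in KO Nutlin-3a cells, 19.7 and 21.003 in KO DMSO cells, 13.6 and 14.0 in WT Nutlin-3a cells, and 25.4 and 23.7 in WT DMSO cells. The groups did not overlap, with WT DMSO highest and WT Nutlin-3a lowest. It was lower in KO cells under DMSO (-0.33, SE 0.06, adjusted p = 0.00021). The KO to WT difference with Nutlin-3a was 0.14 (SE 0.07, adjusted p = 0.0842), and passed with upper-quartile scaling (0.18, adjusted p = 0.0327) and limma (0.22 to 0.23). Nutlin-3a lowered it by -0.36 in KO cells (adjusted p = 0.000229) and by -0.84 in WT cells (adjusted p = 4.3e-09), a smaller fall in KO cells by 0.47 (SE 0.09, adjusted p = 0.00101). SNAI2 over TWIST1 RPKM was 0.764 and 0.716 in KO Nutlin-3a cells, 0.830 and 0.793 in KO DMSO cells, 0.761 and 0.654 in WT Nutlin-3a cells, and 0.406 and 0.528 in WT DMSO cells, so the WT DMSO libraries lay below the other 6. TWIST1 shares 141 exon bases with the antisense gene AC003986.2 in GENCODE 29, and the strand setting of the counting is not given in the sources used here.

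Of the 13 tested partners and targets of these factors, 9 were higher and 1 was lower in KO cells under DMSO (median 0.37), and 8 higher and 2 lower under Nutlin-3a (median 0.34). The neural cadherin CDH2 was higher by 1.09 under DMSO and 1.26 under Nutlin-3a. TCF4, an E-protein partner of TWIST1, was higher by 1.04 under DMSO and 1.12 under Nutlin-3a. The epithelial cadherin CDH1, a classical target of SNAI2 repression, was at 0 to 0.0775 RPKM in KO and 0 to 0.365 RPKM in WT cells. CDH1 was noted after its values were seen. The value of 0.365 was that of WT Nutlin-3a replicate 1, with 55 reads, against 0 in replicate 2 and 13 and 7 in WT DMSO cells. The value of 0.0775 was that of KO Nutlin-3a replicate 2, with 12 reads, against 0 in replicate 1. The genes most like SNAI2 were CCDC23 (0.082) and ZNF136 (0.084), and those most like TWIST1 were GEMIN4 (0.035) and SUPT16H (0.042), against standard deviations of 0.29 for SNAI2 and 0.35 for TWIST1.

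IRF1 encodes an interferon regulatory factor that drives antigen presentation genes. It was at 6.51 and 5.88 RPKM in KO Nutlin-3a cells, 7.48 and 7.48 in KO DMSO cells, 37.8 and 36.7 in WT Nutlin-3a cells, and 29.9 and 31.1 in WT DMSO cells. No groups overlapped, and all 4 KO libraries lay below all 4 WT libraries. It was lower in KO cells by -2.09 under DMSO (SE 0.06, adjusted p = 5.3e-16) and by -2.68 under Nutlin-3a (SE 0.06, adjusted p = 2.1e-17). Nutlin-3a lowered IRF1 in KO cells (-0.30, SE 0.06, adjusted p = 0.000843) and raised it in WT cells (0.29, SE 0.05, adjusted p = 9.6e-05). The difference of the responses was -0.59 (SE 0.08, adjusted p = 2.8e-05). IRF1 shares 1716 exon bases with C5orf56 and 469 with AC116366.3 on the other strand in GENCODE 29.

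The IRF1 window is shown because it holds the only GAS match among the 8 windows, at position -124, in capitals, with no IRF, AP-1 or RUNX match.
IRF1, chr5:132490774-132491023, minus strand: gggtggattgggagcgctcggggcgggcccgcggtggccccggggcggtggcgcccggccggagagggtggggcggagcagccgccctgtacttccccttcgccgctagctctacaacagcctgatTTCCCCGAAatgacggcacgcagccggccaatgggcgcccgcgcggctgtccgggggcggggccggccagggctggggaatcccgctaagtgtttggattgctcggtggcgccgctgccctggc
Of 29 tested genes of the IRF family and IRF1 targets, 17 were lower and 7 higher in KO cells under DMSO (median -0.61), and 21 lower and 3 higher under Nutlin-3a (median -0.44). The immunoproteasome subunit PSMB8 was at 0.707 and 0.610 RPKM in KO Nutlin-3a cells, 0.701 and 0.676 in KO DMSO cells, 3.79 and 3.82 in WT Nutlin-3a cells, and 3.29 and 3.49 in WT DMSO cells, a fall in KO cells of -2.36 under DMSO. PSMB8 had 278 to 364 reads in KO and 1452 to 1680 reads in WT libraries, so its low RPKM is not a low read count. The peptide transporter TAP1 was lower in KO cells by -2.33 under DMSO and -2.43 under Nutlin-3a. The class I molecule gene HLA-C was lower by -1.35 under DMSO and -1.38 under Nutlin-3a. TAP1 and HLA-B rose with Nutlin-3a in both genotypes, TAP1 by 1.94 in KO and 2.04 in WT cells. PSMB8 (0.10) and COL4A1, a basement membrane collagen (0.12), were the genes most like IRF1 in pattern, against its standard deviation of 1.28.

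CD44 was at 8.41 and 8.37 RPKM in KO Nutlin-3a cells, 7.55 and 7.45 in KO DMSO cells, 28.0 and 25.9 in WT Nutlin-3a cells, and 18.9 and 20.1 in WT DMSO cells. The groups did not overlap, and every KO library lay below every WT library. It was lower in KO cells by -1.44 under DMSO (SE 0.05, adjusted p = 6.0e-14) and by -1.77 under Nutlin-3a (SE 0.05, adjusted p = 2.6e-15). Nutlin-3a raised it in WT cells (0.46, SE 0.05, adjusted p = 3.5e-07), and the value in KO cells was 0.13 (SE 0.06, adjusted p = 0.0793), which passed when either WT Nutlin-3a library was left out (adjusted p of 0.00842 and 0.0227), with upper-quartile scaling (adjusted p = 0.0315) and with the 4 KO libraries alone (adjusted p = 0.0101). The difference was -0.33 (SE 0.08, adjusted p = 0.00327). Of 19 tested genes of CD44 and hyaluronan biology, 7 were higher and 5 lower in KO cells under DMSO, and 7 and 7 under Nutlin-3a. The matrix metalloproteinase gene MMP2 was lower by -0.98 under DMSO and -0.99 under Nutlin-3a, and TMEM2 by -0.93 under DMSO and -1.01 under Nutlin-3a. Others went the other way, with MMP14 higher in KO cells by 0.60 under DMSO and SPP1 by 2.75 under Nutlin-3a. With Nutlin-3a MMP14 was at 39.2 and 39.5 RPKM in KO and 43.7 and 48.6 RPKM in WT cells. The genes most like CD44 were AHRR (0.073) and AIG1 (0.088), against its standard deviation of 0.88, and CD44 shares 84 exon bases with CD44-AS1.

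NT5E had the highest RPKM of the 10 genes in WT cells. It was at 14.5 and 14.4 RPKM in KO Nutlin-3a cells, 13.0 and 12.2 in KO DMSO cells, 73.8 and 71.3 in WT Nutlin-3a cells, and 60.3 and 60.6 in WT DMSO cells. The groups did not overlap, and the largest KO value was below the smallest WT value. It was lower in KO cells by -2.33 under DMSO (SE 0.05, adjusted p = 1.4e-17) and by -2.42 under Nutlin-3a (SE 0.05, adjusted p = 8.4e-18). Nutlin-3a raised it in WT cells (0.26, SE 0.05, adjusted p = 7.6e-05) and in KO cells (0.16, SE 0.05, adjusted p = 0.0156), but the KO rise was lost without KO Nutlin-3a replicate 1 or 2 or KO DMSO replicate 2 (adjusted p from 0.0808 to 0.223). The difference was -0.09, with a 95% interval from -0.24 to 0.05 (adjusted p = 0.338). Of 14 tested genes of adenosine metabolism and signalling, 7 were lower and 3 higher in KO cells in each treatment. The nucleoside transporter gene SLC29A2 was lower by -1.69 under DMSO and -0.96 under Nutlin-3a. PAWR (0.11) and SSFA2 (0.12) were the genes most like NT5E, against its standard deviation of 1.27.

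**Figure D5:**
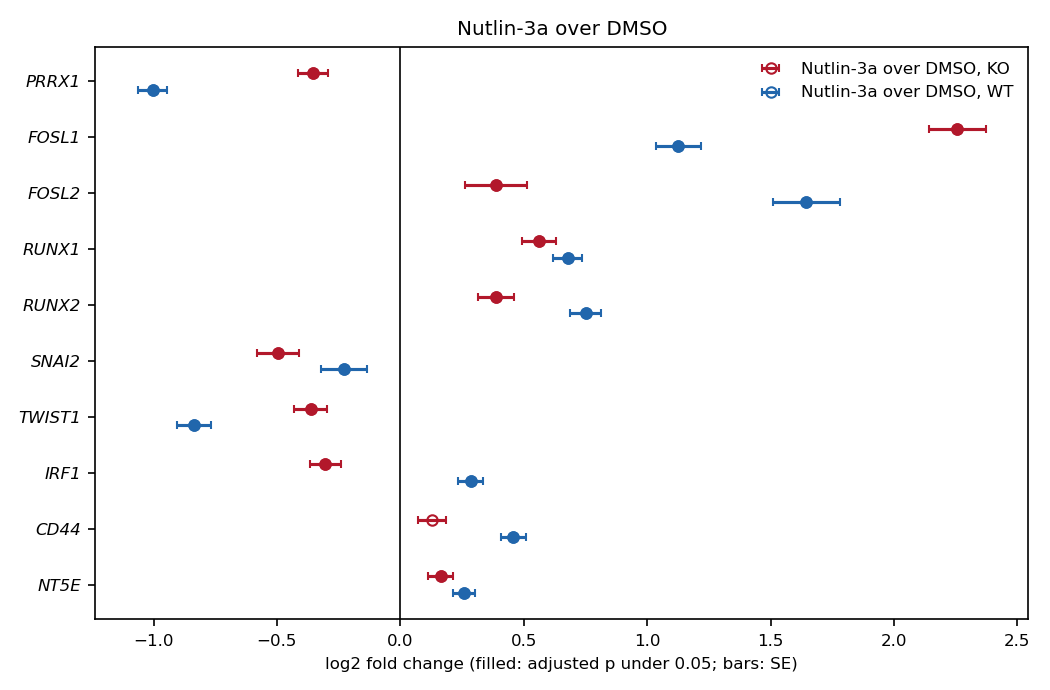
Log2 fold change of Nutlin-3a over DMSO, with SE, in KO and WT cells for each gene; filled points passed adjusted p under 0.05. FOSL1 lies further right in KO cells (2.26) than in WT cells (1.13), FOSL2 further left in KO cells (0.39) than in WT cells (1.65), and IRF1 is on opposite sides of 0 (-0.30 in KO, 0.29 in WT).

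Other genes of the mesenchymal state were called in both directions in KO cells. Of 27 tested other transcription factors, 12 were higher and 10 lower under DMSO (median -0.02), and 7 higher and 14 lower under Nutlin-3a (median -0.25). EGR3 was lower by -2.18 under DMSO and IFI16 was higher by 0.95. Of 27 other surface, matrix and cytoskeleton genes, 8 were higher and 14 lower under DMSO (median -0.24), and 8 and 13 under Nutlin-3a (median -0.15). The smooth muscle protein gene TAGLN was higher by 3.65 and the cadherin gene CDH11 by 1.97 under DMSO, while PDGFRB was lower by -1.39 under Nutlin-3a. Of 24 tested adrenergic genes, 15 were higher and 7 lower under DMSO (median 0.46), and 15 and 6 under Nutlin-3a (median 0.55). TH, the rate-limiting enzyme of catecholamine synthesis, was lower by -5.54 under DMSO. No test of a difference between these lists and the 10 genes was made.

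Summed fibroblast, epithelial, Schwann and immune markers also differed between KO and WT libraries without overlap, and endothelial sums overlapped. The summed RPKM of 8 fibroblast markers was 251 to 258 in KO Nutlin-3a, 266 to 267 in KO DMSO, 595 to 596 in WT Nutlin-3a and 544 to 555 in WT DMSO cells. It was led by COL6A1 and LUM, and 3 of 7 tested were lower and 3 higher in KO cells under DMSO. The sum of 18 epithelial markers was 141 to 150 RPKM in KO Nutlin-3a, 154 to 168 in KO DMSO, 483 to 504 in WT Nutlin-3a and 381 to 389 in WT DMSO cells. It was led by keratins KRT8 and KRT18 and by CLDN4, with 6 of 13 tested lower in KO cells under DMSO. The intestinal factor CDX2 was at 0 to 0.0132 RPKM in KO and 0 to 0.0579 RPKM in WT cells. The sums were 9.21 to 10.9 RPKM in KO and 3.91 to 8.12 RPKM in WT cells for 9 Schwann and glial markers, with SOX10 at 0 to 0.0559 RPKM over all libraries. For 8 endothelial markers they were 1.22 to 1.69 RPKM in KO and 0.422 to 1.61 RPKM in WT cells. The WT value of 1.61 was that of WT Nutlin-3a replicate 1, which had 78 reads of KDR and 90 of TEK, against 1 and 0 in replicate 2, genes noted after their values were seen. For 10 immune markers the sums were 4.79 to 5.78 RPKM in KO and 6.87 to 8.08 RPKM in WT cells, with CD3E at 0 in all 8. The part of these markers in the levels of the 10 genes was not tested. In bulk RNA, fewer cells of a type and less RNA per cell cannot be told apart.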

How the data were processed

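Poly(A) RNA of 8 CHP212 libraries was prepared for sequencing with TRI reagent and a strand-specific TruSeq kit, per the labels' protocols. HTSeq 0.8.0, TopHat2 2.1.1 with Bowtie2 2.2.9.0, Picard 2.9.4, SAMtools 1.5 and FastQC 0.11.5 and the GRCh37 (hg19) build are named in the submitters' processing notes, with no strand setting of the counting given in the sources used here. The authors deposited read counts per gene and RPKM values. Groups and replicate numbers came from the sample titles, and each column was tied to its sample by name. The lists and the 10 genes were chosen with earlier results of these data known.

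From the counts, edgeR 4.0.16 (R 4.3.3) fitted 4 group means over all 8 libraries with TMM scaling after filterByExpr (minimum count 10), leaving 4 residual degrees of freedom, and the robust quasi-likelihood test was applied to 5 comparisons. The genes named are the 10 members, up to 3 called genes with the smallest p and no overlap per list and comparison, FAM193A, CDKN1A and MDM2, and the 2 genes most like each member, some left out for length; the few genes outside this rule are marked in the text or serve as marker checks. Likeness used centred log2 CPM (prior count 2) over genes whose mean log2 CPM was 1 or more. Within each group the replicates differed beyond counting noise (chi-square per gene from 2.34 to 8.77). The alternatives used DESeq2 1.42.0, limma 3.58.1, other scalings, filters and thresholds, a replicate block and each library left out. Fits were tested on simulated data.

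Promoter sequences are from RefSeq, GRCh38.p14, another build than that of the counts, and no coordinates were converted. Exon overlap was read from GENCODE 29. Protein sequences were not used here.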

Additional observations from a re-analysis of the deposited data

Results flagged for a closer look

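Between KO and WT cells the response to Nutlin-3a differed for 27.5% of all tested genes, by the interaction contrast of the edgeR quasi-likelihood fit. It differed for 7 of the 10 genes. For each, the difference of the log2 changes is KO minus WT. It was 0.65 for PRRX1, 1.13 for FOSL1 and 0.47 for TWIST1. It was -1.26 for FOSL2, -0.36 for RUNX2, -0.59 for IRF1 and -0.33 for CD44. As given above, the RUNX2 call was lost without WT DMSO replicate 1 (-0.27) or KO Nutlin-3a replicate 1 (-0.29). For IRF1 the direction itself differed, with a fall in KO cells and a rise in WT cells. FOSL1 and FOSL2, which both encode FOS-family proteins of AP-1, differed in opposite directions.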

How the results depend on the processing

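No member's log2 fold change changed direction under the alternatives run. Counts of the 10 genes called stayed within 1.5 times in 56 of 59 alternatives and in all 40 fits with a library left out. With adjusted p under 0.05 and at least a 1.5-fold change, 6 were called in the WT response, 1 in the KO response and 4 in the difference, where 26.1%, 11.4% and 9.53% of all genes were in that order. With the replicate number as a block, 10 were called in the WT response, where 58.7% of all genes were, and 9 in the KO response, where 38.7% were. For KO against WT the block gave 10 under DMSO and 8 under Nutlin-3a, where 61.9% and 63.2% of all genes were called. For the difference it gave 7, where 27.5% of all genes were called. Same-numbered replicates did not deviate together (correlation from -0.0226 to -0.00421). This value cannot tell whether same-numbered samples were handled together. Counts with each library left out are not set against all genes here, because each such fit leaves 1 sample in a group. Of 400 member values with a library left out, 17 lost and 8 gained a call, and of 590 under other settings 30 lost and 18 gained one. The cause was not tested, except that the counts with a minimum fold change are lower by construction. For KO against WT under Nutlin-3a, limma on log2(RPKM + 0.1) moved the median of all genes to 0.11 and the share of higher calls to 62.4%, against 51.8% with TMM. Leave-one-out fits that leave 1 sample in a group assume that it varies like the other groups, the fit without 3 libraries rests on 1 residual degree of freedom, and the 4-library fit could not be made for the difference.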
